A study of Homo sapiens with 18 samples.

Results

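The 57 genes described here carry out mitosis: the CDK1 kinase and its cyclins, the mitotic kinases and spindle checkpoint, the chromosomal passenger complex, the kinetochore, mitotic kinesins, spindle proteins, the cytokinesis machinery, condensin and cohesin factors, and the transcription factors FOXM1 and MYBL2. They were taken by symbol from a table of 28266 genes, and all 57 passed the filter on low counts that left 14341 genes for testing. The 57 were chosen with earlier results of these data known. Contrasts of their calls and fold changes with those of all genes therefore describe the set and are no independent evidence about it. Sequencing covered polyadenylated RNA of IMR90 ER:RAS cells, a human lung fibroblast line given a retroviral vector for a fusion of the oestrogen receptor and RAS, in which 4-hydroxytamoxifen (4OHT) switches RAS on and drives oncogene-induced senescence (OIS). The study asked how N-myristoyltransferase inhibitors (NMTi), which stop a fatty acid being attached to the amino end of certain proteins, acted on senescent and on control cells. There were 6 groups of 3 libraries each.

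Control cells carried the same fusion and had received DMSO, the solvent, in place of 4OHT. Senescent cells, which carried it too, had received 100 nM 4OHT. After 7 days each kind of culture was given DMSO, IMP1088 at 300 nM or DDD86481 at 1.5 µM, and RNA was collected 3 days later, on day 10. The labels do not say whether the replicates were separate cultures, so p-values measure only the spread between these libraries, which may be technical. In bulk RNA, fewer dividing cells and less of a transcript in each dividing cell cannot be told apart.

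In a dividing cell, CDK1 bound to cyclin A or cyclin B starts mitosis, Aurora and Polo-like kinases build the spindle, and the spindle checkpoint holds the anaphase-promoting complex (APC/C) back until every kinetochore is attached. The APC/C then marks securin and cyclin B for destruction, and anillin, the centralspindlin kinesin KIF23 and the exchange factor ECT2 set up the furrow that divides the cell. Most of these genes are transcribed late in the cell cycle through the DREAM and MuvB complexes, B-MYB (MYBL2) and FOXM1, and senescent cells, which have left the cycle, are known for low levels of them.

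Many promoters of such genes hold a cell-cycle homology region (CHR; TTTGAA or TTCGAA, searched on either strand) and a CCAAT box (CCAAT or its complement ATTGG). RefSeq promoters on build GRCh38.p14, 300 bases from 250 before to 50 after the start, were matched for 49 of the 57 genes. CDK1, AURKB, PTTG1 and ECT2 had 2 promoters each. Where a gene had more than 1, only the first listed was searched, also for genes outside the set. The genes not matched were AURKA, CDCA2, CENPM, FOXM1, TPX2, TTK, BIRC5 and UBE2C. The following stretches, chosen after their letters were seen, are the 120 bases before the start of 7 genes to which the results return, with CHR and CCAAT letters in capitals. In CDCA8 and MKI67 a CHR and a reverse CCAAT box share 1 base in the run TTTGAATTGG.
CCNB2, chr15:59105026-59105145, + strand: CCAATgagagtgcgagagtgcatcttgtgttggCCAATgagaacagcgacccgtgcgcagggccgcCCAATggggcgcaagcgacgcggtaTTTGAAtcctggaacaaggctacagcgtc
PLK1, chr16:23678769-23678888, + strand: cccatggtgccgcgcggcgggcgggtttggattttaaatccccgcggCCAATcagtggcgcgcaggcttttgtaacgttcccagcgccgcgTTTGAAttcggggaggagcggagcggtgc
CDCA8, chr1:37692396-37692515, + strand: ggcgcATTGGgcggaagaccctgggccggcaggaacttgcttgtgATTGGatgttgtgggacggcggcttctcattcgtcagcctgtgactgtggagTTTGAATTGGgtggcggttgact
CDC20, chr1:43358861-43358980, + strand: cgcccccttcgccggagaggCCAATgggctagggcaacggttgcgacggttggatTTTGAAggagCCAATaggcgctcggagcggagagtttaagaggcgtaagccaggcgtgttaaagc
MKI67, chr10:128126424-128126543, - strand: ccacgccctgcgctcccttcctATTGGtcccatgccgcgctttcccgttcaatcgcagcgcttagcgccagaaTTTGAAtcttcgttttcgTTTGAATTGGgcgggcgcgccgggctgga
ECT2, chr3:172750606-172750725, + strand: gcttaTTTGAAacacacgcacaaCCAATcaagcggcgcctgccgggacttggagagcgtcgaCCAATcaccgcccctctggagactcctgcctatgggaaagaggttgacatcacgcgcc
KIF20A, chr5:138178992-138179111, + strand: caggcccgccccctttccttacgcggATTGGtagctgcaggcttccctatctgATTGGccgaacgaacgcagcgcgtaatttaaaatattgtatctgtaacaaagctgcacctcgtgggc

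A CHR was found in 36 of the 49 promoters (73.5%), against 16.6% of all 27305 promoters and 11.3% of the 11104 promoters of tested genes. A CCAAT box stood in 38 (77.6%), against 35.7% of all promoters, and both stood in 29 (59.2%), against 6.58% of all. With the 50 bases after the start left out, 26 promoters (53.1%) held a CHR, against 14.6% of all. An E2F site, spelled TTT, then CC, GG, CG or GC, then CGC, was found in 5 of the 49 promoters (10.2%), against 3.33% of all. ECT2, which behaved unlike most of the set below, has both motifs, whereas KIF20A, one of the genes with the steepest loss, has 2 CCAAT boxes and no CHR in this window. These shares describe letters in a window and do not show binding.

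The libraries held 16143716 to 23189950 counts, and levels are given as CPM, counts divided by the library size after scaling with the TMM method. A floor of 3 counts per library, 0.121 to 0.187 CPM, was taken as the limit of detection, and covers counting error only. All 8 fibroblast markers were above the floor in every library, summing to 11344 to 34938 CPM, while epithelial markers summed to 0.846 to 15.1 CPM with 2 of 5 at or under the floor throughout. Endothelial markers summed to 14.04 to 55.4 CPM and immune markers to 15.2 to 164.5 CPM, the highest being TEK and CD68, and their changes stand beside those of the set below. With DMSO, HRAS was at 3031 to 3248 CPM in control and 5312 to 6062 CPM in senescent cells. The CDK inhibitor CDKN1A was at 341 to 410 against 1952 to 2265 CPM. Of 6 genes listed for the design, 3 were called higher, 2 lower and 1 did not pass in that comparison, with log2 fold changes from -3.695 to 2.497. One library stood apart by transcript length: across genes, the deviation of control DMSO replicate 3 from its group mean fell with transcript length (Spearman's rho -0.625 over 13752 genes and -0.685 over the 57), whereas rho was 0.575 and 0.554 in replicate 1. In the 15 libraries of the other groups, rho over the 57 genes lay between -0.206 and 0.258. Over all genes it lay between -0.268 (senescent DMSO replicate 3) and 0.325 (control IMP1088 replicate 1). Genes are not independent replicates and these values carry no p, so results that use the control DMSO libraries are also given without replicate 3.

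In control cells with DMSO the 57 genes summed to 768.5 ± 36.4 CPM (SD, n = 3). Per kilobase of transcript, which allows levels of different genes to be compared, the securin gene PTTG1 was highest at 20.9 CPM per kb, followed by the APC/C ubiquitin-conjugating enzyme UBE2C at 16.4, cyclin B1 (CCNB1) at 14.97, DNA topoisomerase II alpha (TOP2A) at 10.9 and the Aurora A kinase AURKA at 9.79. The lowest were the kinesin KIF14 at 0.627, the centromere protein CENPI at 0.738 and shugoshin (SGO1), which protects cohesin at centromeres, at 0.778 CPM per kb. The order was read from libraries that differ by length: the 12 genes under 2000 bases had a median deviation of 0.26 (log2) from the group mean in control DMSO replicate 3, and the 16 genes of 4000 bases or more one of -0.029 there, of -0.038 in replicate 2 and of 0.16 in replicate 1. The longest transcripts were low in replicate 3: the proliferation antigen MKI67 (12716 bases) was at 32.2, 19.8 and 12.9 CPM in replicates 1, 2 and 3, and CENPF (10290 bases), a kinetochore protein, at 31.0, 24.1 and 14.4 CPM. The shortest went the other way, with PTTG1 (715 bases) at 12.1, 14.8 and 18.01 CPM and UBE2C (777 bases) at 9.51, 11.1 and 17.7 CPM. The plot of deviation against transcript length shows this for the 57 genes.

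**Figure D1:**
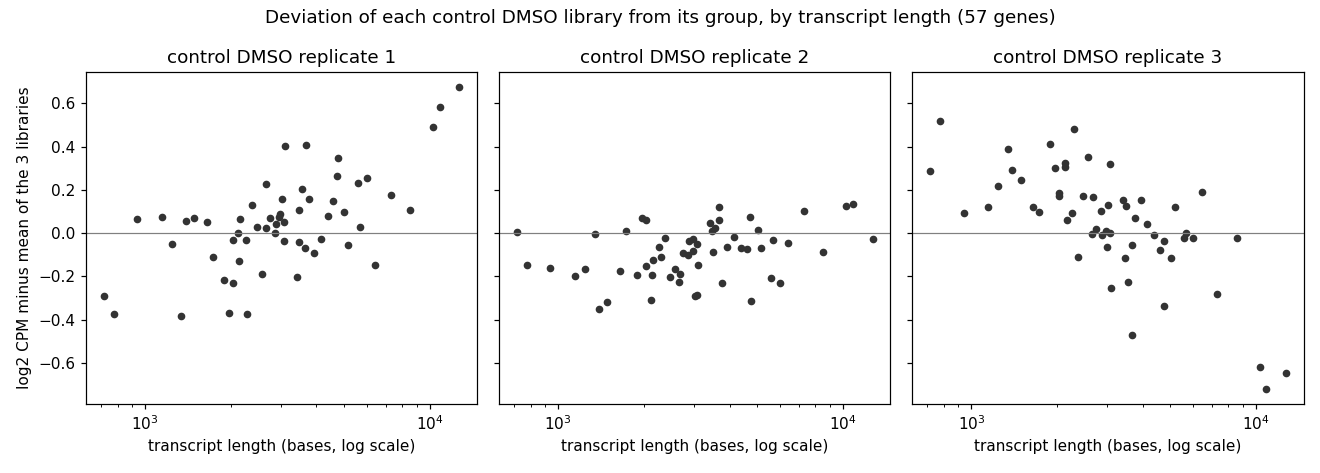
Deviation of each of the 57 genes from its group mean (log2 CPM minus the mean of the 3 libraries, y axis) against canonical transcript length in bases (log x axis) in the 3 control DMSO libraries. Deviations fall with length in replicate 3 (rho -0.685) and rise with it in replicates 1 and 2 (rho 0.554 and 0.327).

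The sum over the set was lower in each of the other groups, where it was made up differently. It was 192.5 ± 13.8 CPM in control cells with IMP1088, 185.6 ± 24.96 CPM in control cells with DDD86481, 154 ± 6.69 CPM in senescent cells with DMSO, 190.7 ± 3.37 CPM in senescent cells with IMP1088 and 190.1 ± 7.85 CPM in senescent cells with DDD86481 (SD, n = 3 each). AURKA, ECT2 and CENPN, picked out after their values were seen, held 9.10% of the sum in control cells with DMSO and 49.4%, 55.6% and 55.9% of it in senescent cells with DMSO, IMP1088 and DDD86481. Without these 3 genes, the sum was 21.4% and 20.8% of the control DMSO level in control cells with IMP1088 and DDD86481, 11.2% in senescent cells with DMSO and 12.1% and 12% in senescent cells with the inhibitors. The heat map of levels shows the same split gene by gene.

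**Figure D2:**
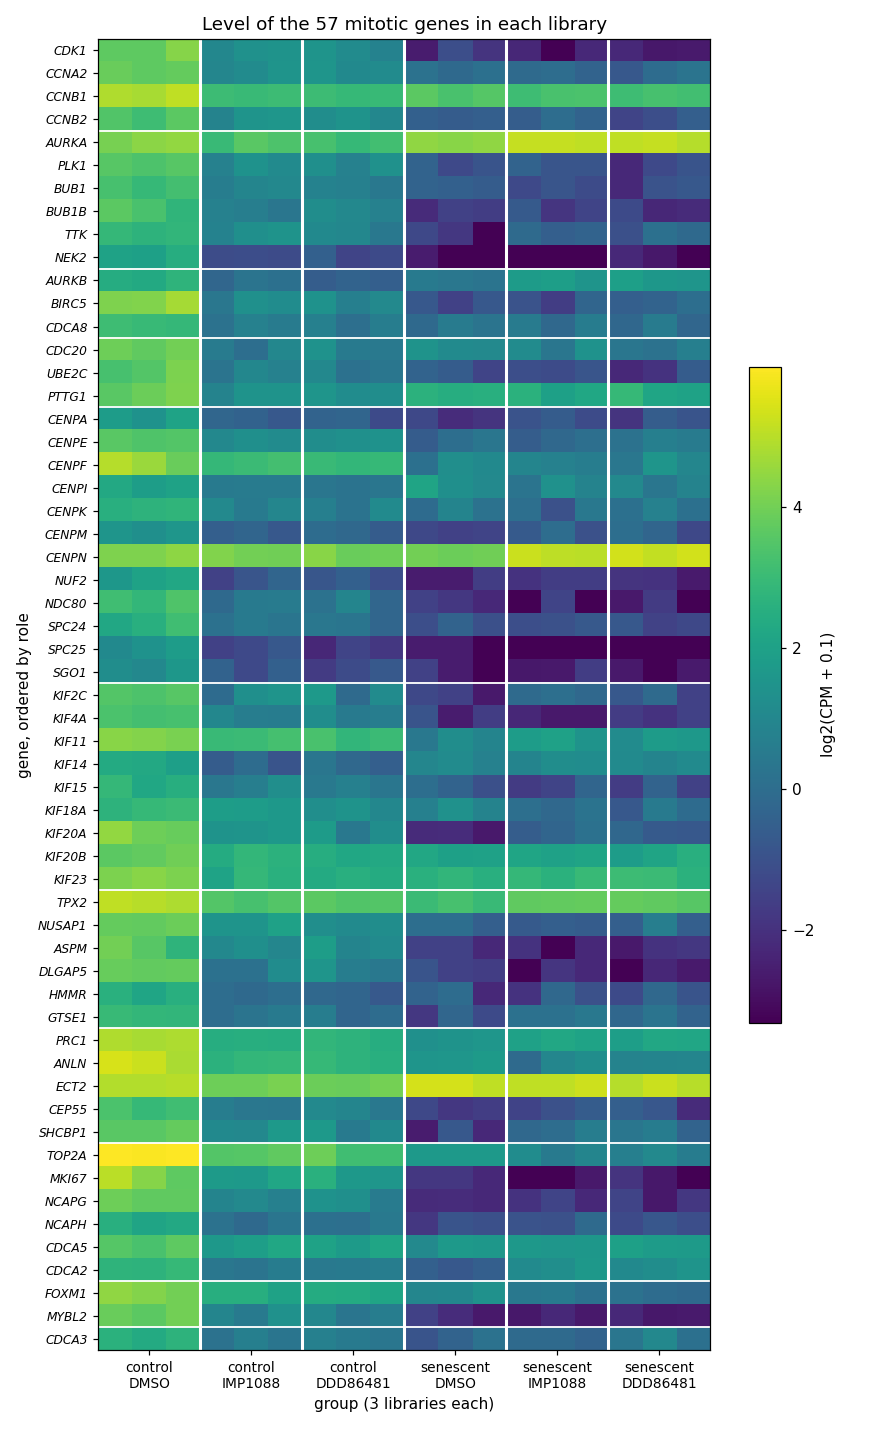
Level of each of the 57 mitotic genes (rows, ordered by role) in each of the 18 libraries (columns, by group), as colour on a log2(CPM + 0.1) scale. For most genes the control DMSO columns are the brightest, and AURKA, ECT2 and CENPN stay bright in the senescent columns where most other genes are dark.

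Senescence was examined first, by comparing senescent with control cells, both with DMSO. Of the 57 genes, 54 fell (94.7%), 1 rose and 2 did not pass the test, against 36% of all tested genes called lower and 32.5% called higher (edgeR quasi-likelihood test, adjusted p under 0.05). The median log2 fold change of the set was -3.81, and that of all genes -0.051. Since the set was chosen with earlier results known, such contrasts are descriptive, here and for the inhibitors and interactions below. For 54 genes all 3 senescent libraries lay below all 3 control libraries, as they did for 35.2% of all genes. Without control DMSO replicate 3, 53 genes fell and the median was -3.83, the gene lost being CENPN. At the floor of 3 counts, 11, 13 and 15 of the 57 genes were no longer detectable in the 3 senescent DMSO libraries, and 5 genes were at or under it in all of them. Cell type markers moved in the same comparison. Of the 8 fibroblast markers 7 fell and 1 rose (median -2.31), their sum going from 24195 to 30349 CPM in control down to 16364 to 16744 CPM in senescent cells. Of the 5 endothelial markers 4 rose and 1, TEK, fell (median 3.73), with sums of 31.9 to 55.4 and 35.6 to 44.7 CPM. Immune markers summed to 15.2 to 20.1 and 119.1 to 149.9 CPM, with the T cell and B cell markers CD3E and MS4A1 at or under the floor in both groups, and epithelial markers to 2.54 to 3.58 and 9.96 to 11.8 CPM, with CDH1, KRT5 and KRT14 at or under it. Their part in the change of the set was not tested.

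The kinase subunits that drive mitotic entry all fell. CCNB1 was at 29.5, 27.2 and 34.4 CPM in control and 12.5, 9.96 and 11.5 CPM in senescent cells, so that the groups did not overlap although an appreciable level was left (log2 fold change -1.42 ± 0.119 (SE), edgeR adjusted p = 1.40e-09). CDK1 itself lost far more, from a mean of 15.05 to 0.2 CPM (log2 fold change -6.20 ± 0.355). Cyclin A2 (CCNA2) and cyclin B2 (CCNB2) lay between, at -3.84 ± 0.216 and -4.14 ± 0.266.

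Of 6 mitotic kinases and checkpoint genes, 5 fell, with a median of -4.96 for the 6. The exception was AURKA, at 16.9, 20.6 and 22.3 CPM in control and 21.6, 20.3 and 21.8 CPM in senescent cells, which overlapped (log2 fold change 0.09 ± 0.136, edgeR adjusted p = 0.554). The Polo-like kinase gene PLK1, which acts with AURKA at centrosomes and whose promoter is printed above, was at 11.8, 10.3 and 11.7 CPM in control and at 0.679, 0.311 and 0.440 CPM in senescent cells (-4.55 ± 0.280, adjusted p = 1.14e-11). NEK2, a centrosome kinase, was at or under the floor in every senescent DMSO library and therefore at least 24.99-fold lower. The checkpoint genes BUB1, BUB1B and TTK all fell.

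In the chromosomal passenger complex, which corrects faulty kinetochore attachments, all 3 genes fell: its kinase AURKB went from 5.40, 4.99 and 6.52 to 1.30, 1.18 and 1.10 CPM (-2.23 ± 0.204, edgeR adjusted p = 5.75e-09). Survivin (BIRC5) of the same complex went from 18.3, 18.7 and 26.7 to 0.494, 0.249 and 0.495 CPM (-5.65 ± 0.321, adjusted p = 3.12e-12). The groups were well apart for both genes, and the loss was larger for BIRC5. Of the APC/C genes, the activator CDC20 went from 15.2, 12.99 and 15.97 to 2.66, 2.12 and 1.98 CPM (-2.71 ± 0.259), and PTTG1, the securin that the APC/C destroys, from 12.1, 14.8 and 18.01 to 6.24, 5.54 and 5.82 CPM (-1.35 ± 0.214). PTTG1 thus kept one of the higher levels of the set in senescent cells, 8.20 CPM per kb, behind AURKA at 10.4 and ECT2 at 9.56.

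Among the 12 centromere and kinetochore genes 11 fell, with a median of -3.71. CENPA, the histone H3 variant that marks centromeres, was at 3.47, 2.62 and 4.08 CPM in control and 0.309, 0.125 and 0.165 CPM in senescent cells (-4.05 ± 0.397, edgeR adjusted p = 1.69e-08). NDC80, which grips the microtubule, was at 8.67, 7.00 and 10.7 against 0.247, 0.187 and 0.110 CPM (-5.57 ± 0.475), and CENPF at 31.0, 24.1 and 14.4 against 0.988, 2.30 and 2.03 CPM (-3.70 ± 0.287). For these 3 genes the lowest control library was well above the highest senescent one. SPC25, a partner of NDC80, had no senescent library above the floor and was at least 15.02-fold lower.

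In the constitutive centromere network, CENPK (-2.37 ± 0.299) and CENPM (-3.23 ± 0.359) fell with the rest, and CENPN and CENPI changed little or did not pass. CENPN, which binds CENPA nucleosomes, was at 18.02, 18.4 and 21.4 CPM in control and 15.9, 14.9 and 15.4 CPM in senescent cells. The libraries did not overlap, yet the difference was small (-0.32 ± 0.129, edgeR adjusted p = 0.0339). It missed the threshold without control DMSO replicate 3 (-0.24, adjusted p = 0.116) and in several other fits. CENPI did not pass the test (-0.53 ± 0.265, adjusted p = 0.0812), with overlapping values of 4.80, 3.54 and 4.03 CPM in control and 4.26, 2.37 and 1.98 CPM in senescent cells.

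All 9 kinesin motor genes fell, by amounts from -1.29 ± 0.228 for KIF14 to the loss of KIF20A, which carries the passenger complex to the central spindle. KIF20A was at 22.1, 15.1 and 13.98 CPM in control and had 2, 2 and 1 counts in the senescent DMSO libraries, at least 95.2-fold lower. KIF11, the motor that pushes the spindle poles apart, was at 20.03, 18.9 and 17.3 against 1.24, 2.24 and 1.76 CPM (-3.42 ± 0.207, edgeR adjusted p = 8.35e-12). KIF23 and KIF20B kept more, with log2 fold changes of -1.58 ± 0.170 and -1.73 ± 0.171.

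The 6 spindle and microtubule genes fell too, with a median of -4.09, and the smallest loss was in TPX2, the activator of Aurora A, at 33.8, 31.6 and 29.0 CPM in control and 7.96, 9.52 and 7.91 CPM in senescent cells (-1.90 ± 0.116). Cytokinesis genes split, with 4 of 5 lower and 1 higher. Anillin (ANLN), the scaffold of the cleavage furrow, was at 42.7, 37.5 and 28.2 against 2.78, 2.86 and 3.24 CPM (-3.61 ± 0.209, edgeR adjusted p = 4.28e-12). ECT2, which activates RhoA at the furrow and also acts in interphase, was at 30.0, 30.2 and 31.6 CPM in control and 42.2, 41.8 and 34.6 CPM in senescent cells. Every senescent value lay above every control value, and ECT2 was the 1 gene of the set that rose (0.37 ± 0.107, adjusted p = 0.00473), a call that was lost under upper quartile scaling (0.21, adjusted p = 0.0934).

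Genes of chromosome structure and cohesion fell in 6 of 6 cases, with a median of -4.09. TOP2A, which untangles sister chromatids, was at 63.5, 60.9 and 62.2 CPM in control and 3.09, 3.11 and 3.08 CPM in senescent cells (-4.33 ± 0.194, edgeR adjusted p = 6.47e-14). MKI67, the coat of mitotic chromosomes, had 3, 3 and 2 counts in the senescent libraries and was at least 121-fold lower, and the condensin subunit NCAPG, whose canonical exons overlap LCORL on the opposite strand over 35.6% of their length, was at least 76.5-fold lower. Of the transcription factors, FOXM1 went from 21.8, 19.2 and 16.2 to 1.85, 1.87 and 2.53 CPM (-3.18 ± 0.180), with 22% of its exonic bases shared with ITFG2 on the other strand, and MYBL2 from 14.4, 12.4 and 15.9 to 0.247, 0.125 and 0.0549 CPM (-6.62 ± 0.331). Both were far below their control range. CDCA3, the adaptor that targets the kinase WEE1 for destruction, fell by 2.99 ± 0.274 on the log2 scale, from 6.13, 5.07 and 6.32 to 0.432, 0.685 and 1.04 CPM.

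**Figure D3:**
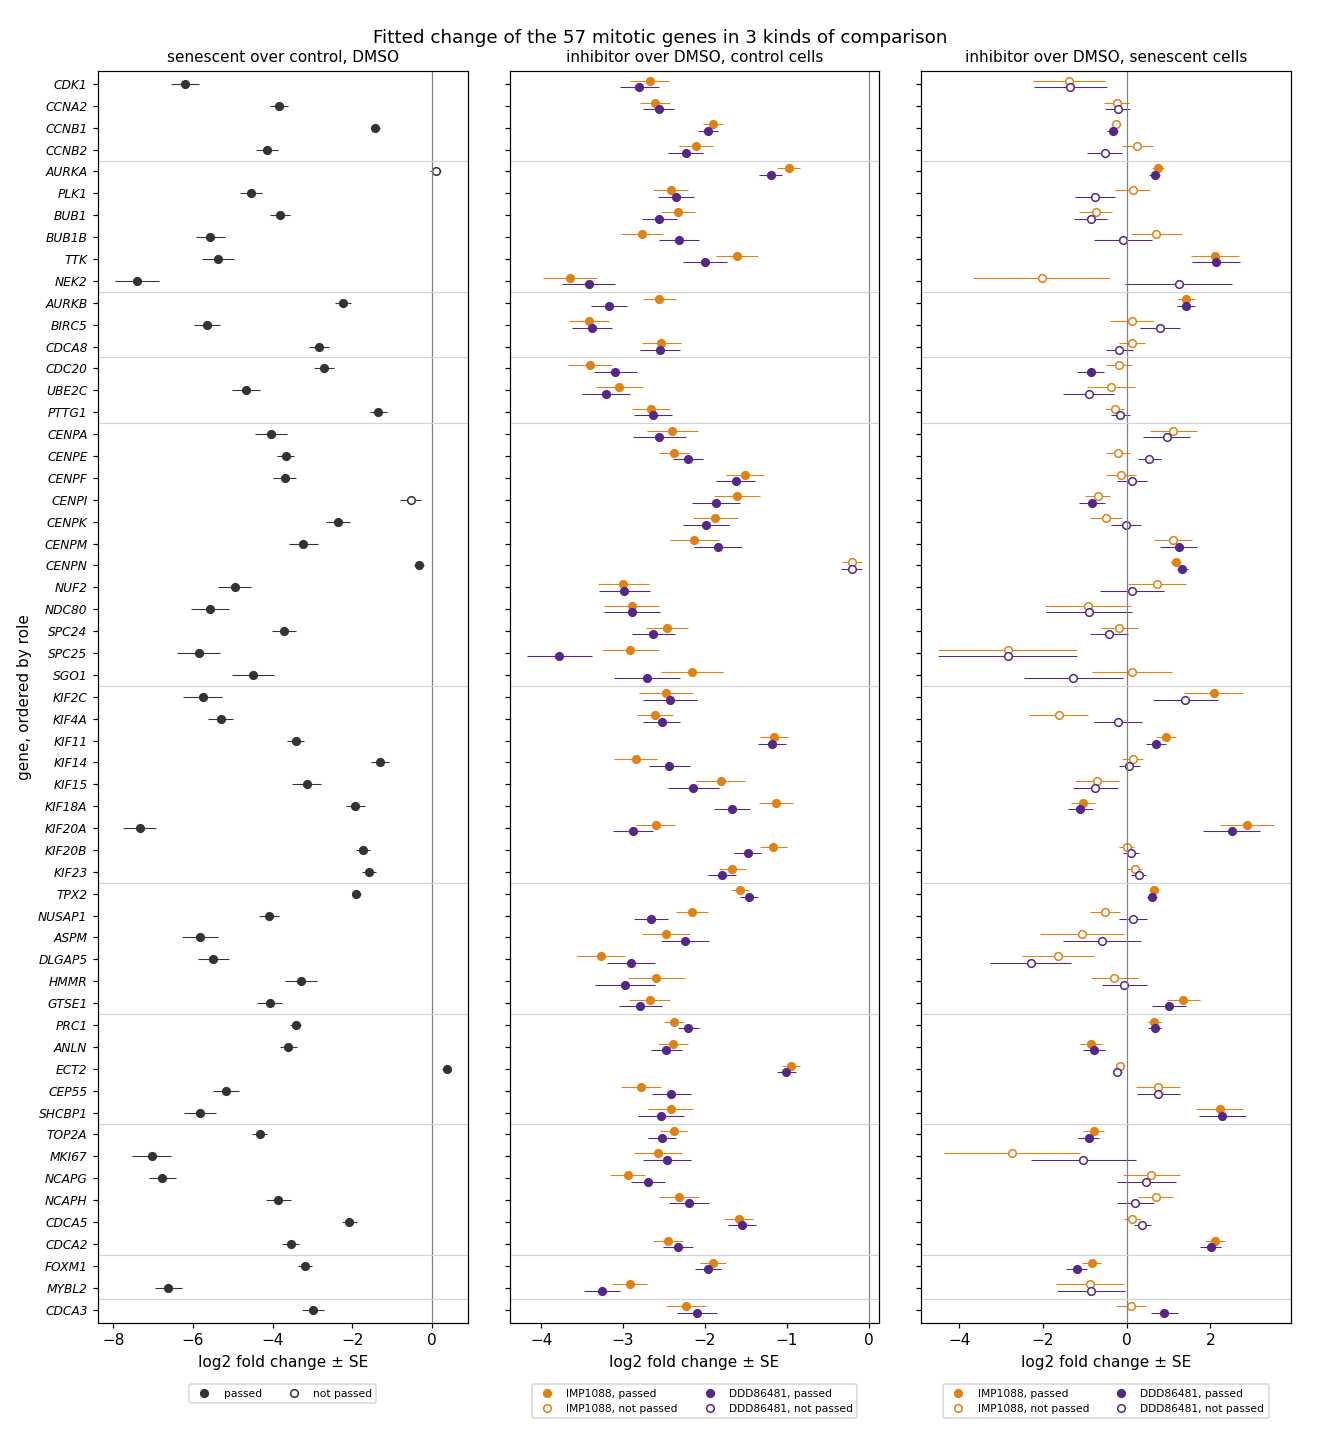
Fitted log2 fold change ± SE (x axis) of each of the 57 genes (y axis, ordered by role) for senescent over control cells with DMSO, for each inhibitor over DMSO in control cells, and for each inhibitor over DMSO in senescent cells. Filled points passed the test; 54 genes lie left of 0 and passed in the first comparison and 56 with each inhibitor in control cells, while points lie on both sides of 0 in senescent cells. Where a group was at or under 3 counts in every library, the point is a fitted value and no bound.

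To see what NMTi did to the same genes in cells that were not senescent, each inhibitor was compared with DMSO in control cells. Both comparisons use the same 3 control DMSO libraries, so their values are given side by side and not as separate support. With IMP1088, 56 of 57 genes fell (98.2%) and none rose, against 17.4% lower and 16.3% higher over all genes (edgeR). With DDD86481, 56 fell and none rose, against 18.7% of all genes lower and 17.8% higher. With each inhibitor 0 genes were higher at an unadjusted p under 0.05 and 0 by DESeq2. The medians were -2.42 and -2.44, where those of all genes were -0.0011 and 0.0, and 56 genes had non-overlapping libraries with each inhibitor, against 21.3% and 22% of all genes. Of the 8 fibroblast markers 2 were higher and 3 lower with each inhibitor (sums of 29595 to 34938 CPM), and of 5 endothelial markers 1 rose with each and 1 fell with IMP1088. Of the epithelial markers tested, 1 of 2 fell with each, and neither of the 2 immune markers passed. The part of these markers was not tested. Without control DMSO replicate 3, 56 genes still fell with each, with medians of -2.38 and -2.48.

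Role by role, the medians of senescence had run from -4.96 for the kinases and checkpoint genes to -2.71 for the APC/C genes. Here they ran from -3.05 for the APC/C genes to -1.81 for the kinesins with IMP1088, and from -3.18 for the passenger complex to -2.10 for CDCA3 with DDD86481. No member was undetectable: in both groups all 57 genes exceeded the floor in at least 1 library. TOP2A, for example, was at 11.2, 11.5 and 13.2 CPM with IMP1088 and 15.03, 8.80 and 8.65 CPM with DDD86481, well under the control DMSO values given above (-2.38 and -2.52), and still above the senescent values. MKI67 was likewise intermediate, at 3.26, 3.21 and 4.42 CPM with IMP1088 and 5.90, 3.03 and 2.90 CPM with DDD86481.

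Among the steepest losses were NEK2 (-3.65 ± 0.328 with IMP1088, edgeR adjusted p = 1.86e-07, and -3.42 ± 0.324 with DDD86481) and BIRC5, at 1.204, 2.45 and 2.23 CPM with IMP1088 and 2.61, 1.51 and 1.96 CPM with DDD86481 (-3.42 ± 0.247 and -3.38 ± 0.248). CDC20 fell to 1.36, 0.935 and 1.89 CPM and to 2.61, 1.29 and 1.26 CPM (-3.40 ± 0.269 and -3.10 ± 0.263). SPC25 was the lowest with DDD86481 (-3.78 ± 0.399, adjusted p = 3.22e-06). Small changes were found in AURKA and ECT2, which had not fallen in senescence, and in KIF11 (-1.16 ± 0.168 and -1.18 ± 0.169), which had: AURKA fell to 7.83, 12.1 and 10.4 CPM and to 9.65, 7.40 and 8.93 CPM (-0.97 ± 0.140 and -1.197 ± 0.143), and ECT2 to 15.1, 15.2 and 17.1 CPM and to 14.7, 14.6 and 16.3 CPM (-0.95 ± 0.110 and -1.01 ± 0.111). AURKA and ECT2 were lower in every treated than in every control library. CENPI, which had not passed in senescence, fell with both inhibitors (-1.61 ± 0.283 and -1.86 ± 0.294). CENPN alone did not pass, at 18.5, 16.1 and 15.5 CPM with IMP1088 and 20.4, 14.4 and 15.1 CPM with DDD86481, overlapping its control range (-0.21 ± 0.127, adjusted p = 0.224, and -0.21 ± 0.128, adjusted p = 0.207).

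Some genes stood lower in inhibitor-treated control cells than in senescent cells with DMSO. CCNB1, for instance, was at 8.28, 7.93 and 8.21 CPM in control cells with IMP1088 and 8.24, 7.51 and 7.62 CPM with DDD86481, below all 3 senescent DMSO values. PTTG1 was at 1.71, 2.67 and 2.67 CPM and 2.77, 2.19 and 2.24 CPM, also below them, and so was AURKB at 0.753, 1.11 and 0.971 CPM with IMP1088 apart from 1 library that met the senescent range. PLK1 went the other way, at 1.61, 2.58 and 2.09 CPM and 2.40, 1.63 and 2.52 CPM, above every senescent value. This was also the order for KIF11, at 7.83, 8.11 and 9.33 CPM and 9.86, 6.95 and 7.99 CPM, and for CENPF, at 7.17, 8.15 and 9.03 CPM and 7.88, 7.17 and 7.48 CPM. These orders were not tested.

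In senescent cells the inhibitors did not lower the set as a whole. With IMP1088, 12 genes rose (21.1%), 4 fell (7.02%) and 41 did not pass, while 20.6% of all genes were called higher and 23.9% lower. The share of higher calls was near the background share and is no result about mitotic genes, and the share of lower calls was under it. With DDD86481, 13 rose (22.8%), 7 fell (12.3%) and 37 did not pass, against 20.1% and 23.1% of all genes. Here too the share of higher calls was near the background and is no result about mitotic genes, and that of lower calls was under it. Medians were -0.0012 and -0.0094. Libraries did not overlap for 14 genes upward and 7 downward with IMP1088, against 28.1% and 32.9% of all genes, and for 11 and 9 with DDD86481, against 24% and 28.7%. The senescent DMSO libraries are shared by both comparisons. Of the fibroblast markers 5 of 8 fell and 2 rose with each inhibitor, summing to 11344 to 12125 CPM, and 4 of 5 endothelial markers fell with IMP1088 and 3 with DDD86481, summing to 14.04 to 25.3 CPM, with none at or under the floor throughout. None of the 2 epithelial and 2 immune markers tested passed. The part of these markers in the set's values was not tested. In these cells 8 and 9 of the 57 genes were at or under the floor in all 3 libraries with IMP1088 and DDD86481, so that for them a further decrease was not detectable at this depth.

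Of the genes that rose, 11 were called with both inhibitors: AURKA, TTK, AURKB, CENPN, KIF11, KIF20A, TPX2, GTSE1, PRC1, SHCBP1 and CDCA2. The Aurora kinases and the Aurora A activator were among them. AURKA was at 36.0, 36.3 and 34.5 CPM with IMP1088 and 33.9, 36.2 and 31.2 CPM with DDD86481, above the 20.3 to 21.8 CPM of senescent cells with DMSO and above every control library (0.75 ± 0.135, edgeR adjusted p = 0.000145, and 0.67 ± 0.135, adjusted p = 0.000463). TPX2 was at 13.2, 13.3 and 13.8 CPM and 13.8, 13.1 and 11.8 CPM (0.66 ± 0.119 and 0.61 ± 0.119). AURKB reached 3.32, 3.63 and 2.69 CPM and 3.77, 2.98 and 2.82 CPM (1.43 ± 0.217 and 1.42 ± 0.217), more than its senescent DMSO level and less than its level in control cells with DMSO. TTK, the kinase that starts checkpoint signalling, went from 0.309, 0.187 and 0 CPM to 0.842, 0.615 and 0.673 CPM and to 0.382, 0.993 and 0.797 CPM (2.12 ± 0.577 and 2.14 ± 0.576), a rise over a group near the floor.

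CENPN was at 38.1, 33.6 and 32.6 CPM with IMP1088 and 40.8, 35.1 and 40.7 CPM with DDD86481, above all libraries of the other 4 groups (1.17 ± 0.129, edgeR adjusted p = 4.29e-07, and 1.33 ± 0.129, adjusted p = 9.42e-08). KIF11 was at 3.47, 3.91 and 2.64 CPM and 2.13, 3.34 and 3.01 CPM (0.94 ± 0.234, adjusted p = 0.00279, and 0.69 ± 0.240, adjusted p = 0.0242), overlapping the senescent DMSO libraries with DDD86481. Without senescent DMSO replicate 1, KIF11 with DDD86481 missed the threshold (0.51, adjusted p = 0.127). KIF20A had 2, 2 and 1 counts with DMSO, 11, 13 and 18 with IMP1088 and 14, 10 and 8 with DDD86481, so that it was higher by at least 4.31-fold with the first and at least 3.31-fold with the second. Its level of 0.579 to 1.01 CPM with IMP1088 remained far under the 13.98 CPM of the lowest control DMSO library.

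PRC1, which bundles the microtubules of the central spindle, was at 2.47, 2.68 and 2.86 CPM with DMSO, 3.95, 4.64 and 4.09 CPM with IMP1088 and 3.60, 4.70 and 4.48 CPM with DDD86481 (0.66 ± 0.154 and 0.67 ± 0.154, edgeR). Part of its canonical transcript, 38.8%, overlaps the antisense gene PRC1-AS1. CDCA2, which brings a phosphatase to chromosomes at mitotic exit, was at 0.617, 0.498 and 0.604 CPM against 2.11, 2.35 and 3.03 CPM and 2.02, 2.30 and 2.698 CPM (2.10 ± 0.242, adjusted p = 7.95e-07, and 2.01 ± 0.244, adjusted p = 1.65e-06). SHCBP1, a partner of the central spindle, had 1, 8 and 2 counts with DMSO against 15, 16 and 26 with IMP1088 and 21, 27 and 11 with DDD86481 (2.22 ± 0.563 and 2.29 ± 0.559). The groups did not overlap for these 3 genes. GTSE1, a microtubule protein that restrains p53, rose by 1.36 ± 0.389 and 1.02 ± 0.406, the second with an adjusted p of 0.0479 that became 0.205 without senescent DMSO replicate 1.

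Other calls were made with a single inhibitor, KIF2C with IMP1088 (2.08 ± 0.699, edgeR adjusted p = 0.0203, and 1.41 ± 0.768, adjusted p = 0.149, with DDD86481) and CENPM and CDCA3 with DDD86481. CENPM, of the constitutive centromere network, was at 1.10 ± 0.454 (adjusted p = 0.0544) and 1.24 ± 0.447 (adjusted p = 0.0298), and CDCA3 at 0.10 ± 0.355 and 0.90 ± 0.325. Each of these calls was lost when 1 library was left out: KIF2C without senescent DMSO replicate 3 (adjusted p = 0.101), CENPM without senescent DDD86481 replicate 1 (0.152) and CDCA3 without senescent DDD86481 replicate 2 (0.225).

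Genes that fell with both inhibitors in senescent cells were KIF18A, ANLN, TOP2A and FOXM1. FOXM1 was at 1.21, 1.29 and 1.01 CPM with IMP1088 and 1.04, 0.888 and 0.797 CPM with DDD86481, below its 1.85, 1.87 and 2.53 CPM with DMSO (-0.84 ± 0.236, edgeR adjusted p = 0.00662, and -1.195 ± 0.247, adjusted p = 0.000572). TOP2A was at 2.21, 1.34 and 1.79 CPM and 1.53, 1.99 and 1.41 CPM, below the 3.08 CPM of the lowest DMSO library (-0.79 ± 0.243 and -0.90 ± 0.248). ANLN was at 0.842, 1.84 and 2.30 CPM and 1.69, 1.72 and 1.78 CPM (-0.84 ± 0.263 and -0.78 ± 0.262), and the kinesin KIF18A, which damps chromosome movement, fell by 1.04 ± 0.293 and 1.11 ± 0.296 on the log2 scale. With IMP1088, TOP2A was lost without senescent IMP1088 replicate 2 (adjusted p = 0.0672), ANLN without senescent IMP1088 replicate 1 (0.0891) and KIF18A without senescent DMSO replicate 2 (0.0522). With DDD86481, ANLN was lost without senescent DMSO replicate 3 (0.0744).

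Lower with DDD86481 alone were CCNB1, at 8.57, 9.51 and 8.83 CPM against 12.5, 9.96 and 11.5 CPM (-0.34 ± 0.125, edgeR adjusted p = 0.0356), CDC20, at 1.15, 1.05 and 1.53 CPM (-0.86 ± 0.329) and CENPI (-0.83 ± 0.300). All 3 calls were lost without senescent DMSO replicate 1, with adjusted p of 0.153, 0.136 and 0.282. Counted over all settings tried, leaving out each library included, 11 of the 12 higher calls with IMP1088 passed every time, against 7 of 13 with DDD86481, where TTK and KIF20A were removed by the count filter in the fits of these groups alone. Both genes passed the filter on all groups through libraries in which they are higher, so those fits give their calls with DDD86481 no support. With IMP1088, the fits of these groups alone kept TTK, KIF20A, SHCBP1, GTSE1 and CDCA2 through the IMP1088 libraries, where they are higher. With DDD86481 this held for SHCBP1 and CDCA2. Passing in those fits is therefore no separate support for these calls. The genes that passed every time with both inhibitors were AURKA, AURKB, CENPN, TPX2, PRC1, SHCBP1 and CDCA2 among those that rose, and FOXM1 among those that fell.

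**Figure D4:**
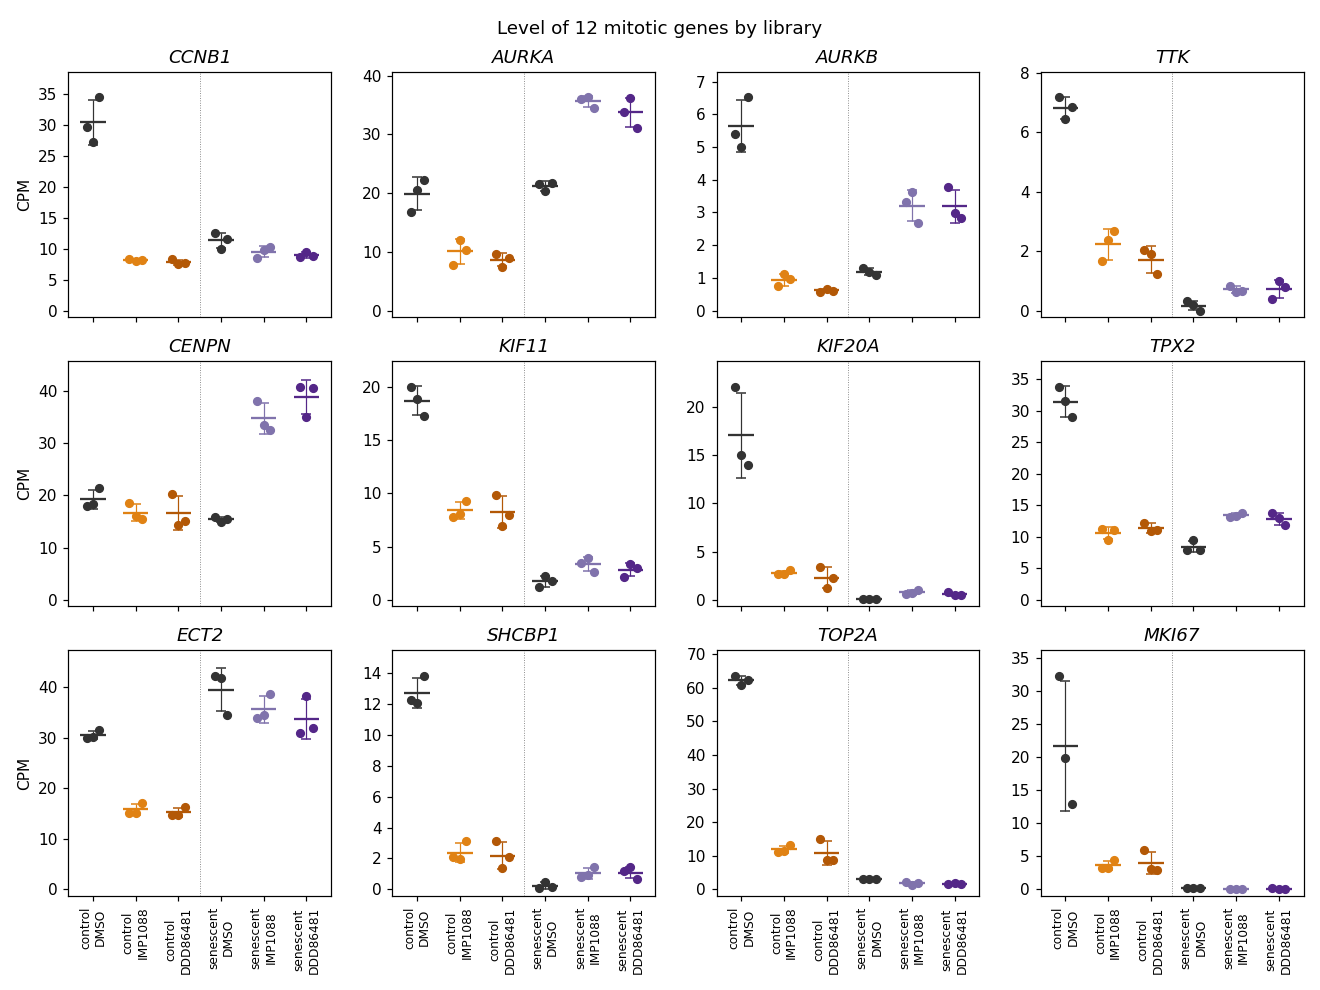
Level in CPM (linear y axes from 0) of 12 mitotic genes in every library of the 6 groups (points), with the group mean as a long bar and the SD over 3 libraries as whiskers. TOP2A, MKI67 and KIF20A are highest in control cells with DMSO and lower in every other group, whereas AURKA and CENPN are highest in senescent cells with either inhibitor.

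Whether the inhibitors acted differently in senescent and control cells was tested as an interaction, the inhibitor effect in senescent cells less the effect in control cells. It was positive and passed for 44 genes with IMP1088 (77.2%) and 45 with DDD86481 (78.9%), against 12.1% and 14.4% of all genes, and negative for none, against 14.2% and 15.9% (edgeR; 0 were negative at an unadjusted p under 0.05 and 0 by DESeq2). Both medians were 2.23. Without control DMSO replicate 3 the counts were 43 and 45. Of the genes that fell in control and did not pass in senescent cells, 41 with IMP1088 and 37 with DDD86481, 29 and 28 had a positive interaction. Most of the set was already low in senescent cells with DMSO. Without AURKA, ECT2 and CENPN its sum there was 11.15% of the control DMSO level. In control cells it was 21.45% with IMP1088 and 20.77% with DDD86481. The part of this low starting level in the interactions was not tested. The 11 genes with IMP1088 and 12 with DDD86481 that fell in control and rose in senescent cells were called in opposite directions by the same fit, so that their positive interactions add no separate support.

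For AURKB, of this last kind, the interactions were 3.98 ± 0.297 and 4.59 ± 0.312 (edgeR adjusted p = 1.74e-08 and 8.31e-09). For CDCA2 they were 4.55 ± 0.302 and 4.34 ± 0.304, for PRC1 3.04 ± 0.197 and 2.88 ± 0.197, and for AURKA 1.72 ± 0.195 and 1.87 ± 0.197. The interaction for CENPN, which did not pass in control cells, was 1.38 ± 0.181 and 1.54 ± 0.181, and that for ECT2, which did not pass in senescent cells, 0.81 ± 0.154 and 0.78 ± 0.154. TOP2A fell in both states and still had interactions of 1.59 ± 0.297 and 1.62 ± 0.303, since it fell less in senescent cells. The 13 genes that did not pass with IMP1088 and the 12 with DDD86481 were of 2 kinds. KIF18A (0.095 and 0.56), CENPI (0.91 and 1.03) and KIF15 (1.11 and 1.40), above the floor in every senescent library, did not pass with either inhibitor, and FOXM1 did not with DDD86481 (0.76 ± 0.304, adjusted p = 0.0619). The rest had senescent libraries at or under the floor and could not be resolved. MKI67 (-0.16 and 1.43), NDC80 (1.98 and 1.99), MYBL2 (2.05 and 2.41), CDK1 (1.31 and 1.46), ASPM (1.41 and 1.66), SGO1 (2.29 and 1.43), DLGAP5 (1.63 and 0.62) and SPC25 (0.069 and 0.94) did not pass with either inhibitor, and KIF4A (0.99) and NEK2 (1.62) did not with IMP1088. Other genes with such libraries did pass and are counted among the positive interactions. For a gene that fell in control cells and was near the floor in senescent cells with DMSO, a larger fall could hardly be detected. The positive sign of its interaction, and its part in the count of no negative calls, are therefore no result. NCAPG, for example, was at or under the floor in 3 of 3 senescent DMSO libraries and in 2 of 3 with each inhibitor. NUF2 was so in 2 of 3 with DMSO and in 3 of 3 with DDD86481. The size of such interactions depends on the fit. NEK2 passed with DDD86481 (4.66, adjusted p = 0.0239), but was at or under the floor in all the senescent libraries compared and was lost without senescent DDD86481 replicate 1 (adjusted p = 0.209).

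With the inhibitors present on both sides, the medians of senescent against control cells were nearer 0. Under IMP1088, 8 genes were higher (14%) and 38 lower (66.7%) in senescent cells, and under DDD86481, 8 were higher (14%) and 36 lower (63.2%), where 36.2% and 36.1% of all genes were higher and 37.9% lower in each (edgeR). Medians were -1.47 and -1.48, and with genes at the floor set to their bounds -1.33 and -1.29. Libraries did not overlap for 39 and 35 genes downward, against 41.1% and 39% of all genes, and for 9 and 9 upward, against 39.8% and 37%.

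AURKA (1.82 ± 0.141 and 1.96 ± 0.143), AURKB (1.75 ± 0.216 and 2.36 ± 0.236), ECT2 (1.18 ± 0.111 and 1.15 ± 0.112), CENPN (1.06 ± 0.127 and 1.22 ± 0.127), KIF14 (1.70 ± 0.285 and 1.21 ± 0.279), PTTG1 (1.03 ± 0.248 and 1.14 ± 0.249) and CDCA2 (1.002 ± 0.203 and 0.78 ± 0.205) were higher in senescent cells under both inhibitors, in every setting tried. KIF14, a motor of the midbody, passed here without a call in senescent cells: it was at 1.85, 2.18 and 1.59 CPM in senescent cells with DMSO and 1.74, 2.29 and 2.19 CPM with IMP1088, but at 0.552, 0.891 and 0.437 CPM in control cells with IMP1088. PTTG1 was alike, at 5.999, 3.86 and 4.54 CPM in senescent cells with IMP1088. TPX2 passed under IMP1088 alone (0.34 ± 0.115) and KIF23 under DDD86481 alone (0.50 ± 0.178). At the other end, MKI67 was at least 22.0-fold and at least 23.4-fold lower in senescent cells, and DLGAP5, a spindle protein, at least 10.9-fold lower under DDD86481. Genes that did not pass included CCNB1 (0.22 ± 0.125 and 0.20 ± 0.127), CDC20 (0.51 ± 0.317 and -0.48 ± 0.335), CENPA (-0.53 ± 0.419 and -0.54 ± 0.445) and CDCA8 (-0.18 ± 0.291 and -0.46 ± 0.306).

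The inhibitors were given at different doses, so a difference between them is one between these treatments. No member passed in control or in senescent cells, and no gene of the 14341 did (edgeR and DESeq2). At an unadjusted p under 0.05 there were 3 members and 141 genes in control cells, and 2 members and 570 genes in senescent cells. All 57 members differed by less than 1 on the log2 scale in control cells and 53 in senescent cells, the extremes in control cells being BUB1B (-0.46 ± 0.290) and SPC25 (0.87 ± 0.546). These errors leave room for differences in single genes, and the comparison does not show that the treatments act alike. Libraries did not overlap for 5 genes higher with IMP1088 in control cells (2.7% of all genes) and none lower (2.64%), and for 1 higher and 4 lower in senescent cells (6.07% and 4.44%).

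Other genes of division, in lists drawn up by function, had medians nearer 0 than the 57. Both the 57 and these lists were chosen with earlier results of these data known, so this contrast is no result about the 57. In senescence, where 36% of all genes were called lower and 32.5% higher, 25 of 32 other kinetochore and centromere genes fell and 2 rose (median -0.996), among them the SKA complex genes SKA1 (-5.94) and SKA3 (-4.12), which couple kinetochores to microtubules, while SPDL1 (0.57) and CENPB (0.49) rose. Of 23 other spindle and cytokinesis genes 18 fell and 4 rose (median -1.52), the citron kinase gene CIT rising by 2.90 ± 0.227 (edgeR adjusted p = 4.99e-10). Of 14 regulators of mitotic entry and exit 8 fell and 4 rose (median -0.46), with PBK at -6.23 and CDC25C, the phosphatase that activates CDK1, at -3.65, against ESPL1 (0.84), the separase gene, and ENSA (0.69). Of 14 condensin and cohesin subunits 9 fell and 2 rose (median -0.74). Of the 14 core subunits of the APC/C 3 fell and 3 rose (median -0.046, range -0.87 to 0.52), and of 11 DREAM and MuvB subunits 7 fell and 1 rose (median -0.38). Of 38 replication genes 33 fell and 1 rose (median -1.19).

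In control cells, where 17.4% and 18.7% of all genes were called lower, IMP1088 and DDD86481 lowered 17 and 17 of the other kinetochore genes, 20 and 19 of the spindle genes, 9 and 9 of the entry and exit regulators and 26 and 28 of the replication genes, and raised none or 1 in each of these lists. Over all genes 16.3% and 17.8% were called higher. In the remaining lists the counts were 3 higher and 3 lower and then 4 and 3 of the condensin and cohesin subunits, 2 and 1 and then 2 and 3 of the DREAM and MuvB subunits, and 1 and 4 and then 1 and 7 of the APC/C core. In senescent cells the counts of higher and lower genes were 8 and 3 with IMP1088 and 7 and 5 with DDD86481 for kinetochore genes, 4 and 7 and then 4 and 5 for spindle genes, and 17 and 3 and then 16 and 3 for replication genes. They were 2 and 1 and then 1 and 1 for entry and exit regulators, 4 and 4 with each inhibitor for condensin and cohesin subunits, 2 and 1 with each for the APC/C core and 4 and 1 with each for DREAM and MuvB subunits. Set against the 20.6% and 20.1% of all genes called higher, the higher counts of kinetochore and spindle genes are near the background and are no result about them. The higher counts of the 38 replication genes are above that share, in a list also chosen with earlier results known. Over all genes 23.9% and 23.1% were called lower. BORA, the cofactor through which AURKA activates PLK1, was at 1.36, 1.49 and 1.37 CPM in senescent cells with DMSO and rose to 13.3, 10.5 and 11.8 CPM with IMP1088 and 7.86, 10.6 and 8.34 CPM with DDD86481 (3.07 ± 0.253, edgeR adjusted p = 1.12e-08, and 2.66 ± 0.257, adjusted p = 9.61e-08). No senescent DMSO library came near these values, and BORA also rose in control cells (1.18 and 1.10). HJURP, the chaperone that deposits CENPA, rose from 1.67, 1.62 and 1.81 CPM to 5.74, 5.76 and 5.94 CPM with IMP1088 and 3.00, 4.49 and 2.88 CPM with DDD86481 (1.77 ± 0.196 and 1.03 ± 0.205). CENPA itself did not pass, at 0.421, 0.559 and 0.336 CPM and 0.164, 0.575 and 0.429 CPM. CIT, which senescence had raised, fell with DDD86481 from 53.6, 48.4 and 46.8 CPM to 7.32, 5.69 and 10.4 CPM (-2.68 ± 0.227).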

How the data were processed

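The authors deposited 1 table of raw counts, whole-number read counts per gene symbol for 18 libraries. The submitters' processing notes name STAR 2.7.8a, DRAGEN, DESeq2 1.32.0 and build hg38, whereas the study's methods name TopHat, HTSeq and hg19, so the build and counter behind the counts are not settled. The methods name a directional kit and alignment with the first-strand library type; the strand setting of the counting step is not given in the sources used here. Reads of near-identical copies and of overlapping genes may therefore have been shared out in ways that cannot be seen. Every column mapped to a sample (0 without one), and no libraries of a group were duplicates (chi-square per gene at least 5.087).

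Groups came from the treatment labels. R 4.3.3 and edgeR 4.0.16 (limma 3.58.1) were used: genes were filtered with filterByExpr, which left 14341 genes and 99.962% of counts, scaled by TMM and fitted over all 18 libraries and 6 groups with quasi-likelihood tests, 2-sided, with Benjamini-Hochberg adjustment over all tested genes at 0.05. The SE is the absolute log2 fold change divided by the square root of F. Folds against a group at or under 3 counts in every library were set against that floor and are called at least. Alternatives were DESeq2 1.42.0, upper quartile scaling, no count filter, only the groups compared, a replicate block and leaving out each replicate. The scripts were tested on simulated data.

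The genes and the lists were chosen with earlier results of these data known. Named with values in every library were, in each role, the gene with the highest control DMSO mean, plus MKI67, TOP2A, CCNB1, AURKB, PLK1, CDC20, CENPA, NDC80, FOXM1 and MYBL2; named with fold changes were the 3 most negative and 3 most positive in each comparison, those called against the majority and those not passed where most were; of the other lists, the 2 most negative and 2 most positive past the threshold. Other genes shown were chosen after their values were seen. Lengths and overlaps came from GENCODE v44lift37 on GRCh37 (95.9% of tested genes had a length) and promoters from RefSeq.

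Same-numbered libraries deviated together (every r over 0.1) for IMP1088 in control cells (0.394, 0.123 and 0.231) and for IMP1088 against DDD86481 in control (0.101, 0.270 and 0.129) and senescent cells (0.117, 0.126 and 0.119), as found in the data and not from the labels; the other comparisons shared only a number.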

Additional observations from a re-analysis of the deposited data

Results flagged for a closer look

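The inhibitor effect differed between senescent and control cells, by an interaction test (edgeR, adjusted p under 0.05), for 44 of the 57 genes with IMP1088 and for 45 with DDD86481, in the positive direction each time. Over all genes 12.1% and 14.4% passed in the positive direction and 14.2% and 15.9% in the negative one. Most of the set was already low in senescent cells with DMSO, and the part of this in the interactions was not tested. The genes that fell in control and rose in senescent cells with both inhibitors had the following interactions on the log2 scale, IMP1088 first: AURKA 1.72 and 1.87, TTK 3.73 and 4.14, AURKB 3.98 and 4.59, KIF11 2.09 and 1.87, KIF20A 5.47 and 5.39, TPX2 2.23 and 2.07, GTSE1 4.03 and 3.81, PRC1 3.04 and 2.88, SHCBP1 4.64 and 4.83, and CDCA2 4.55 and 4.34. Since these genes were picked for calls of opposite sign in the same fit, their interactions are no separate support. With a single inhibitor this held for KIF2C with IMP1088 (4.55) and for CENPM (3.08) and CDCA3 (3.00) with DDD86481. KIF20A was at or under 3 counts in every senescent DMSO library and SHCBP1 and TTK close to it, so the size of their values depends on the fit and is no bound.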

How the results depend on the processing

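Under upper quartile scaling, which moved the median of all genes by -0.15 in senescence, no gene of the set was higher (0, ECT2 missing the threshold), the set's median was -3.97 and AURKA turned to -0.063. In the fits of only the groups compared, 8 genes rose with DDD86481 in senescent cells, with or without the replicate block, and with the replicate block the median with IMP1088 was 0.16. At 10 counts in place of 3, a mean of 28 genes per senescent DMSO library was under the floor (13 at 3 counts). Leaving out each replicate gave medians of -3.92 to -3.60 in senescence and 4 to 6 lower genes with DDD86481 in senescent cells. Values that crossed 0 on leaving out a replicate, none of which had passed the test, were AURKA in senescence (-0.013 to 0.18); the IMP1088 interactions of SPC25 (-0.51 to 0.43), MKI67 (-2.11 to 0.32), KIF18A (-0.038 to 0.34) and NDC80 (-1.96 to 2.56); the DDD86481 interaction of DLGAP5 (-0.20 to 1.16); senescent against control cells under IMP1088 for CENPM (-0.38 to 0.23), GTSE1 (-0.16 to 0.085) and CDCA8 (-0.32 to 0.042); and under DDD86481 for CDCA3 (-0.34 to 0.19), CENPM (-0.47 to 0.16), GTSE1 (-0.50 to 0.070) and KIF20B (-0.36 to 0.0082). CENPM under IMP1088 was also negative with upper quartile scaling (-0.0998), the replicate block (-0.0028), only the groups compared (-0.0083) and both of these (-0.0121), and CDCA3 under DDD86481 with upper quartile scaling (-0.0896) and with the block and only these groups (-0.0296). The cause was not tested. With the replicate block in the fit of all libraries, the counts higher and lower were 1 and 54 in senescence, 0 and 56 with each inhibitor in control cells, 12 and 4 with IMP1088 and 12 and 7 with DDD86481 in senescent cells, and no count moved by over 1.5 times. Of the calls above, 53 of 54 in senescence, 56 of 56 with each inhibitor in control cells, and 40 of 44 and 37 of 45 positive interactions passed in every fit. Depth limits the set in senescent cells, where 5 to 9 of the 57 genes were at or under 3 counts in every library of a group.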
